A study of Mus musculus with 4 samples.

Results

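Mitochondrial ribosomal protein genes were taken as the rows of the deposited count table whose symbol was Mrpl or Mrps followed by digits and at most 1 letter from a to d. At least 40 reads summed over the libraries were required. The pattern matched 78 rows and the read limit kept 77 of them, out of 53465 rows in the table: 48 Mrpl genes, named for the large subunit, and 29 Mrps genes, named for the small subunit. The limit left out Mrpl53, which had 1 read in all (chr6:83109040-83109939, ENSMUSG00000030037). The member just inside it was Mrps18c with 2154 reads. By annotation 695 of the 790 exonic bases of Mrpl53 lie under exons of Gm42688 on the same strand, and that gene had 1012 reads.

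The libraries were made from poly(A) RNA of B16 cells, an established mouse melanoma line. There were 2 EM-plasma libraries, from cells collected after 4 h with plasma that had been treated with exosome-mimetic nanovesicles, and 2 control libraries. The nature of the plasma, the treatment of the controls and the use of separate cultures are not stated in the labels. Each p-value is therefore set by how far these libraries scatter, and that scatter may be technical.

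Mitochondria carry their own ribosomes, which translate the few proteins still encoded by the mitochondrial genome, all of them parts of the oxidative phosphorylation machinery. The mitochondrial ribosome takes its rRNAs from that genome, while every one of its proteins is encoded in the nucleus, made in the cytosol and imported. Some of these proteins descend from bacterial ribosomal proteins, and others were added in the mitochondrial lineage.

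Library totals ran from 46295133 to 49367932 counts. The test used 13664 genes, of which 849 were called changed at an adjusted p below 0.05 (edgeR's quasi-likelihood test, Benjamini-Hochberg adjusted), 456 higher and 393 lower with EM-plasma. Lineage markers of a melanoma line were present at unlike levels. The most abundant, Tyrp1, ran from 3834 to 4111 CPM (reads of a gene relative to its library's total, scaled with edgeR's TMM factors) across the libraries. Dct ran from 2711 to 2815 CPM. None of the 7 melanocyte markers was called, and 4 had a fold change above 0. Tyr was at 35.3 and 38.2 CPM with EM-plasma, against 40.5 and 45.0 CPM in controls, and just missed the call. Its log2 fold change of EM-plasma over control was -0.22 (adjusted p = 0.0532, edgeR's quasi-likelihood test). Mitf was also lower without overlap (log2 fold change -0.091). Of markers of other cells, Ptprc, Adgre1, Cdh5, Pf4, Ppbp and Hbb-bs had 0 reads in every library, Csf1r and Hba-a1 had 1 read each over the libraries, and Pecam1 had 5 to 8 reads per library. The 3 fibroblast markers passed the filter and none was called, with Col1a1 at 4.27 and 3.39 CPM in the EM-plasma libraries, against 2.56 and 2.62 CPM in the controls.

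After 4 h with EM-plasma no mitochondrial ribosomal protein gene passed the test in either direction. Of the 77 members 0 were higher and 0 were lower, against 3.34% of all tested genes called higher, 2.88% called lower and 6.21% called in all, by edgeR's quasi-likelihood test, Benjamini-Hochberg adjusted over all tested genes. DESeq2 also called 0. All 77 passed the filter on low counts, so the count covers every member. Before adjustment 7 members (9.09%) had p below 0.05, 2 higher and 5 lower, against 19.5% of all tested genes.

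The changes of the members were small and lay on both sides of 0. Their log2 fold changes of EM-plasma over control ran from -0.23 for Mrpl41 to 0.14 for Mrps16, with a median of 0.011. The median over all tested genes was -0.0027. The standard deviation of the log2 fold change over the 77 members was 0.080, against 0.32 over all tested genes. The members had a median level of 48.9 CPM, against 31.1 CPM for all tested genes, and a median standard error of 0.062, against 0.070. Of the members 46 had a fold change above 0, against 6712 of 13664 tested genes.

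The intervals were narrow. For 70 of the 77 members (90.9%) the 95% interval of the fold change lay within 1.2-fold in both directions, a share of 52.8% among all tested genes. For all 77 it lay within 1.5-fold. The 7 members whose interval passed 1.2-fold were Mrpl1, Mrpl14, Mrpl41, Mrps16, Mrps18c, Mrps22 and Mrps36. In bulk RNA, fewer expressing cells and less RNA per cell cannot be told apart.

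Gaps between the group means were set beside gaps between libraries of 1 group. A mean of 2 libraries scatters less than a single library, so these gaps are unlike measures and equal sizes do not mean equal scatter. The median absolute log2 gap between the group means was 0.053 over the members, against 0.055 between the EM-plasma libraries and 0.056 between the control libraries. Over all tested genes these gaps were 0.090 between groups, 0.063 within EM-plasma and 0.10 within control. The gap between groups exceeded both gaps within groups in 26 of the 77 members, against 4908 of 13664 tested genes. Both EM-plasma libraries lay on one side of both controls in 38 members (49.4%), 21 higher and 17 lower, against 49.1% of all tested genes, so the members' share was near the background.

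**Figure D1:**
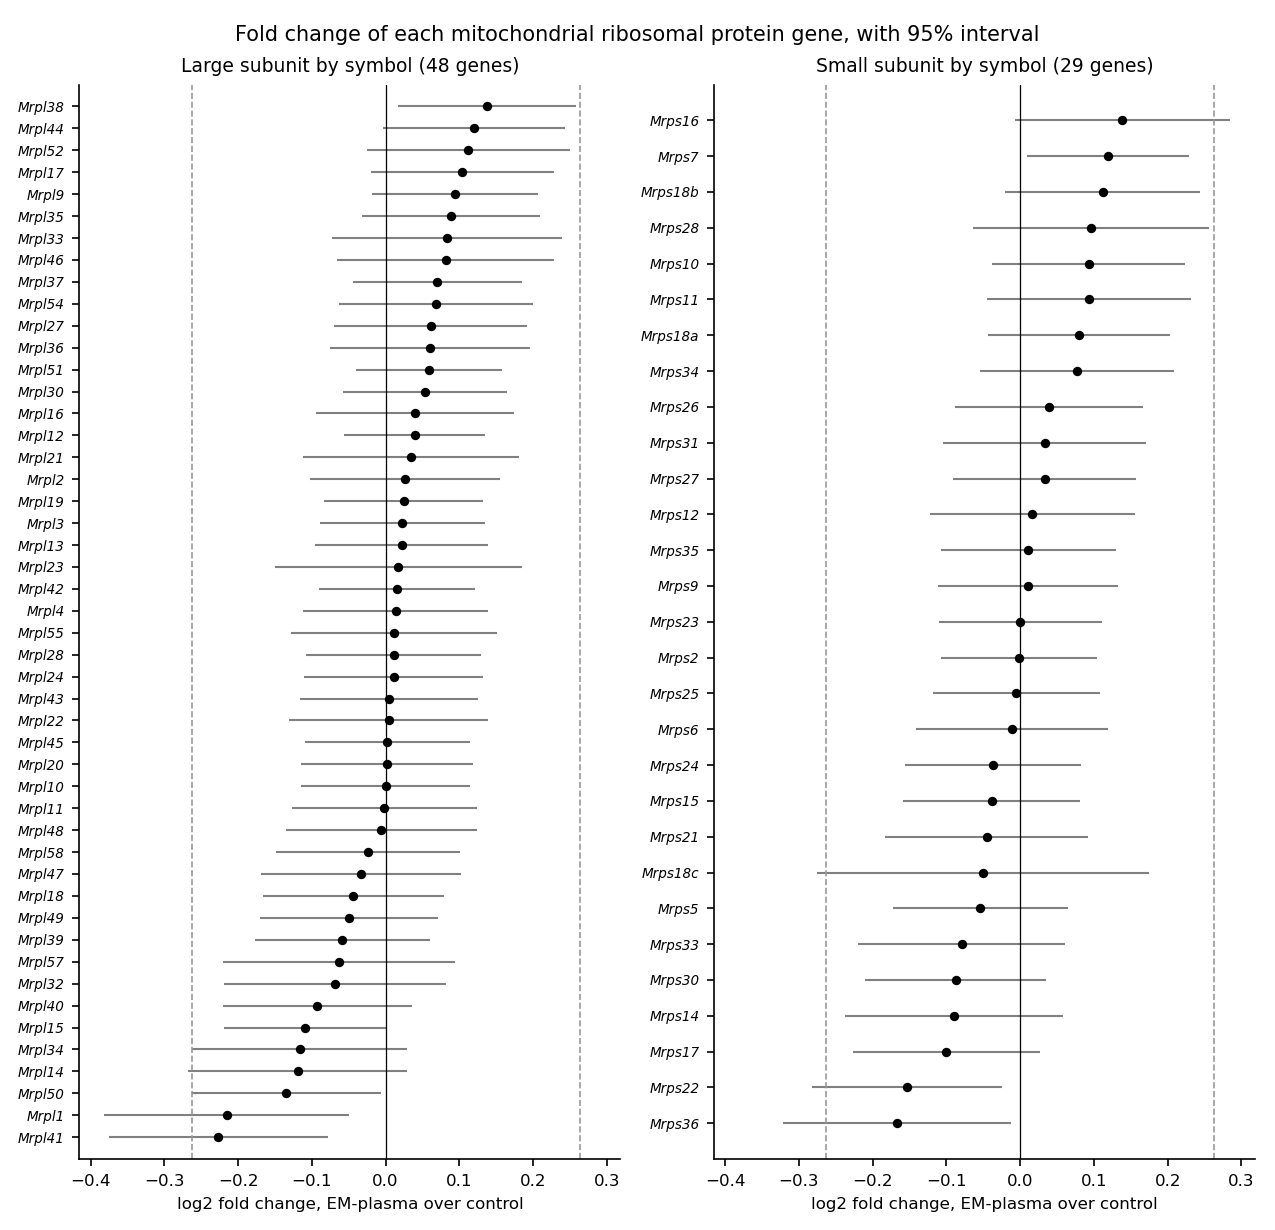
Log2 fold change of EM-plasma over control (x axis) for each of the 48 Mrpl genes (left) and 29 Mrps genes (right), ordered by value; points are edgeR estimates, bars 95% intervals and dashed lines mark 1.2-fold in either direction. Points lie between -0.23 and 0.14, and 70 of the 77 bars end inside the dashed lines.

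Both subunits had medians close to 0. Of 48 Mrpl genes 31 had a fold change above 0, with a median log2 fold change of 0.012, and of 29 Mrps genes 15 did, with a median of 0.00041. Before adjustment p was below 0.05 in 4 Mrpl genes, 1 higher and 3 lower, and in 3 Mrps genes, 1 higher and 2 lower, or 8.33% and 10.3% of them against 19.5% of all tested genes. The groups did not overlap in 25 Mrpl genes (52.1%) and 13 Mrps genes (44.8%), shares near the 49.1% of all tested genes. Without a TMM factor the Mrpl median was 0.023 and the Mrps median 0.011.

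Summed over the Mrpl genes the level was 2839 and 2887 CPM in the EM-plasma libraries, against 2833 and 2838 CPM in the controls. Both EM-plasma sums lay above both controls, EM-plasma 2 clearly and EM-plasma 1 only narrowly, at 2838.8 CPM against 2837.7 CPM in control 2. The ratio of group means was 1.01 (log2 0.014), and without EM-plasma 2 its log2 value was 0.00046. Summed over the Mrps genes the level was 1406 and 1420 CPM in the EM-plasma libraries, against 1406 and 1413 CPM in the controls, and these groups overlapped. The Mrpl sum over the Mrps sum was 2.02 and 2.03 in the EM-plasma libraries, against 2.01 and 2.01 in the controls.

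All members together took 0.427% of the counts in EM-plasma 1 (95% Wilson interval 0.426% to 0.429%) and 0.431% in EM-plasma 2 (0.429% to 0.433%). They took 0.423% in each control (0.421% to 0.425% in both). The intervals cover counting error only. The EM-plasma shares of these unscaled counts were the higher ones. After TMM scaling the sums overlapped, at 4245 and 4307 CPM with EM-plasma, against 4239 and 4250 CPM in controls. With 2 libraries a group the smallest p that an exact two-sided permutation test of a single sum allows is 0.333.

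**Figure D2:**
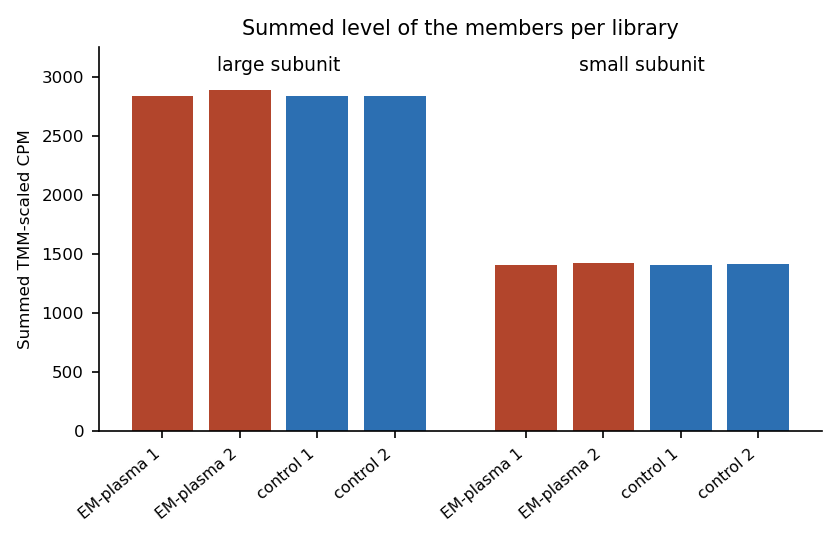
Summed TMM-scaled CPM (y axis, from 0) of the Mrpl genes and of the Mrps genes in each library, 1 bar per library, EM-plasma in red and control in blue. The Mrpl bars stand between 2833 and 2887 CPM and the Mrps bars between 1406 and 1420 CPM.

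Symbols do not always give the place of the protein. Mrps30 and Mrps18a are built into the large subunit of the mammalian mitochondrial ribosome, and Mrps36 is now known as KGD4, a component of the 2-oxoglutarate dehydrogenase complex. Counted by place, 50 genes belonged to the large subunit with a median log2 fold change of 0.012, and 26 to the small subunit with a median of 0.0056. None was called under either count.

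The promoter windows of the members were read for letters of factors known to act on nuclear genes of mitochondrial proteins. RefSeq windows from 250 bases before to 50 after a gene start (GRCm38.p6) were found for 68 members. The motifs searched on both strands were GCGCNTGCG for NRF1, CCGGAAG for ETS factors such as GABP, AAGATGGC for YY1 and the E-box CACGTG, bound by MYC among others. A member counted if any of its windows held the letters. ETS letters were present in 25 of the 68 members (36.8%) and NRF1 letters in 18 (26.5%). YY1 letters were present in 12 members (17.6%) and the E-box in 5 (7.35%). Per window, ETS letters were in 33.8% of 74 member windows, against 11.6% of windows of protein-coding genes and 8.86% of all RefSeq windows. These shares were 24.3%, 8.61% and 6.31% for NRF1 and 16.2%, 3.05% and 2.75% for YY1. For the E-box they were 9.46%, 7.84% and 7.15%. No member window held an ETS and a YY1 match that shared letters, and 23 members held none of these motifs.

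Windows of 4 members are printed 5′ to 3′ on the strand of the gene, with each match in capitals on whichever strand it was found. They were chosen as the member with most reads, the members with the highest and the lowest fold change, and a member of the head with matches to a pair of factors. Mrpl12 (chr11:120484387-120484686, + strand) held an NRF1 match. Mrps16 (chr14:20393441-20393740, - strand) held a pair of ETS matches in this window and none of the motifs in its other RefSeq window. Mrps7 (chr11:115603890-115604189, + strand) held an NRF1 and a YY1 match. Mrpl41 (chr2:24975049-24975348, - strand) held none.
Mrpl12: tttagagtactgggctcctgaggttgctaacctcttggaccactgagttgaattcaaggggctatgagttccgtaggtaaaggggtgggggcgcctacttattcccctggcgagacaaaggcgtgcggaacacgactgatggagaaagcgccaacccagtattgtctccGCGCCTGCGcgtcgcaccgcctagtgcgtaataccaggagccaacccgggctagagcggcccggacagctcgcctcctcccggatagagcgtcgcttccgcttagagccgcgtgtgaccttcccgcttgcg
Mrps16: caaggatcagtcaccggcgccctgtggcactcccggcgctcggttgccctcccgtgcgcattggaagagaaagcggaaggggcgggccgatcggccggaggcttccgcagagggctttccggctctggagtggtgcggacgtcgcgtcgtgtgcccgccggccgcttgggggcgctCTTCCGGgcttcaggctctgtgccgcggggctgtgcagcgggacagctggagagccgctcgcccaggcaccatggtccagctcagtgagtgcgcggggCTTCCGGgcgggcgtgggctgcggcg
Mrps7: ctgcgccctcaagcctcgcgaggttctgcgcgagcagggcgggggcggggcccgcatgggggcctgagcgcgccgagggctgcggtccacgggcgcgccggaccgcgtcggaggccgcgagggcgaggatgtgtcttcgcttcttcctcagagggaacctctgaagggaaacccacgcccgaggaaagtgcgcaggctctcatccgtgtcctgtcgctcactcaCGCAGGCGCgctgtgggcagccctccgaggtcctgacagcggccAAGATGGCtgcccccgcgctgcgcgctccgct
Mrpl41: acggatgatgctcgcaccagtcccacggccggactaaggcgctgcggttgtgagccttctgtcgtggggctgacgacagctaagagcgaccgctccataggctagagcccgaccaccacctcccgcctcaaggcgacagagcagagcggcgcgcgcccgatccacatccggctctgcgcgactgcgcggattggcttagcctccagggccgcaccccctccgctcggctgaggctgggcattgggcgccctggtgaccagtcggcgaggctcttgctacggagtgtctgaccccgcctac

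Fold changes were near 0 with and without each motif. The median log2 fold change was 0.0077 for the 18 members with NRF1 letters and 0.0011 for the 50 without. It was 0.017 for the 25 with ETS letters and 0.0017 for the 43 without. For YY1 it was 0.047 in 12 members with the letters, whose values ran from -0.068 to 0.12, and 0.0011 in 56 without. A match is a run of letters and not a measured binding site.

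Among large subunit proteins the lowest fold changes were in Mrpl41, Mrpl1 and Mrpl50. Mrpl41 (chr2:24974117-24975098, ENSMUSG00000036850), a protein of the large subunit with no bacterial counterpart, was at 23.9 and 22.6 CPM in the EM-plasma libraries, against 27.2 and 27.2 CPM in the controls. Both EM-plasma libraries lay below both controls. The log2 fold change was -0.23 (SE 0.072, 95% interval -0.37 to -0.079) and the adjusted p, from edgeR's quasi-likelihood test, was 0.0575, so the call was missed narrowly. With the trend over GC content removed from each library Mrpl41 did pass (adjusted p = 0.0096), as it did with the trend over transcript length removed (adjusted p = 0.0465). Over all alternatives the adjusted p of Mrpl41 in edgeR's quasi-likelihood test or DESeq2 ran from 0.0096 to 0.591, with a fold change below 0 in 12 of 12.

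Mrpl1 (chr5:96209493-96266727, ENSMUSG00000029486), the mitochondrial counterpart of the bacterial L1 stalk protein that lies beside the exit site for spent tRNA, was at 21.5 and 24.2 CPM with EM-plasma, against 24.5 and 28.5 CPM in controls. The groups did not overlap, but EM-plasma 2 and control 1 were close and each group was spread widely. Its log2 fold change was -0.22 (SE 0.081, adjusted p = 0.118, edgeR's quasi-likelihood test). Mrpl50 (chr4:49512596-49521093, ENSMUSG00000044018), another protein particular to mitochondria, was at 52.2 and 52.1 CPM with EM-plasma, against 54.2 and 60.3 CPM in controls. Control 2 was the library farthest from the others, and the log2 fold change of -0.13 was not called (adjusted p = 0.224, edgeR's quasi-likelihood test). Without control 2 the log2 fold change of Mrpl50 was -0.053 and that of Mrpl1 -0.10. Without control 1 they were -0.21 and -0.32, and without EM-plasma 1 that of Mrpl1 was -0.13.

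The highest large subunit values were in Mrpl38, Mrpl44 and Mrpl52. Mrpl38 (chr11:116131817-116138868, ENSMUSG00000020775) lies in the central protuberance, the part of the large subunit that touches the head of the small one. It was at 73.3 and 75.2 CPM with EM-plasma, against 70.6 and 64.3 CPM in controls. The groups did not overlap, with control 2 the lowest library (log2 fold change 0.14, SE 0.059, adjusted p = 0.179, edgeR's quasi-likelihood test). Mrpl44 (chr1:79776018-79781445, ENSMUSG00000026248), a protein with a fold like that of RNase III, was at 55.4 and 59.0 CPM with EM-plasma, against 53.4 and 51.9 CPM in controls. The lowest EM-plasma library was above the highest control, but the log2 fold change of 0.12 was not called (adjusted p = 0.272, edgeR's quasi-likelihood test). Mrpl52 (chr14:54426909-54429756, ENSMUSG00000010406), a protein with no bacterial counterpart, was at 34.7 and 37.0 CPM with EM-plasma, against 34.0 and 32.4 CPM in controls. Here EM-plasma 1 and control 1 differed by less than the libraries within either group, and the log2 fold change was 0.11. The size of these values rested partly on 1 library: without control 2 Mrpl38 was at 0.074, and without EM-plasma 2 Mrpl44 was at 0.073 and Mrpl52 at 0.064 on the log2 scale.

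The large subunit members with most reads per length, and the one with fewest reads, overlapped between the groups. Mrpl42 (chr10:95480805-95501940, ENSMUSG00000062981), a protein added in the mitochondrial lineage, was at 116.3 and 117.1 CPM with EM-plasma, against 111.4 and 119.4 CPM in controls. Both EM-plasma values fell between the controls, and the log2 fold change was 0.016 (95% interval -0.090 to 0.12). Mrpl12 (chr11:120484613-120489065, ENSMUSG00000039640) forms the stalk that recruits translation factors and had the most reads of any member, 41278 in all. It was at 217.6 and 223.3 CPM with EM-plasma, against 220.9 and 208.1 CPM in controls, with control 1 between the EM-plasma libraries. Mrpl23 (chr7:142532686-142540747, ENSMUSG00000037772), a protein at the mouth of the exit tunnel, had the fewest reads of the Mrpl genes, 3370 in all. It was at 18.0 and 17.7 CPM with EM-plasma, against 17.9 and 17.4 CPM in controls, and its log2 fold change was 0.017 (SE 0.082). Its pseudogene Mrpl23-ps1 had 104 reads over the libraries, which can be shared with it.

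**Figure D3:**
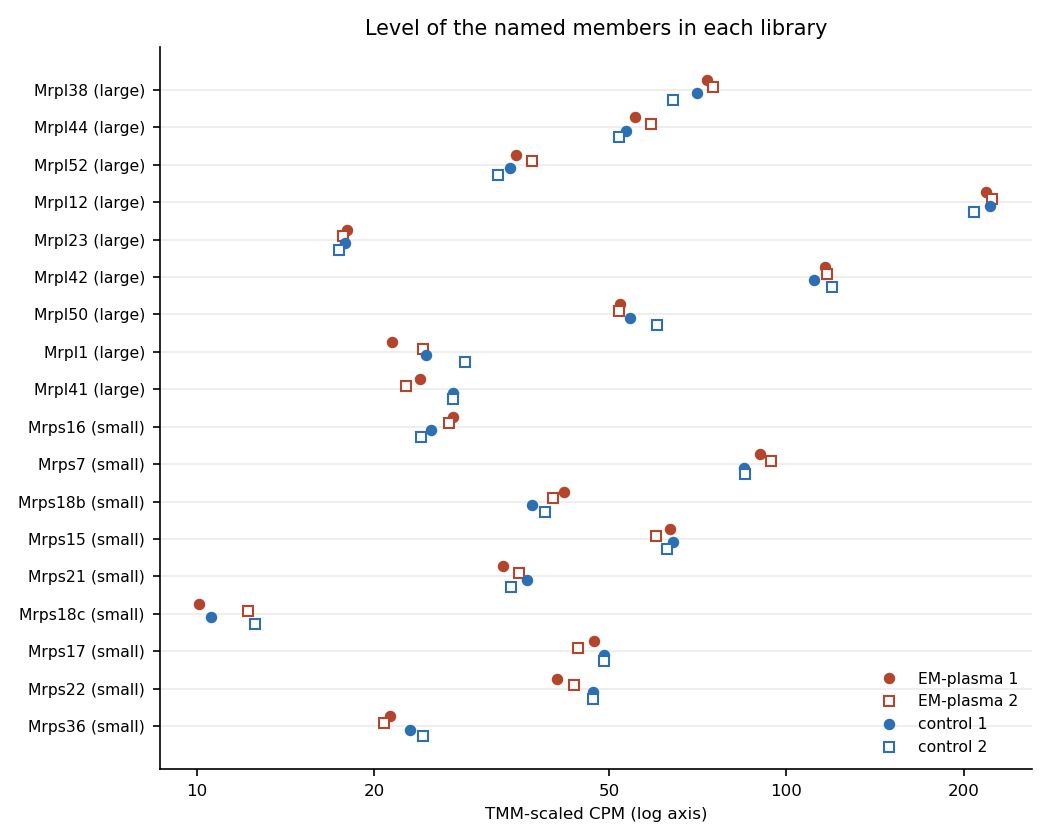
TMM-scaled CPM (x axis, log scale) of 18 members in each of the 4 libraries, EM-plasma in red and control in blue, replicate 1 as filled circles and replicate 2 as open squares. Mrpl12 lies near 220 CPM and Mrps18c near 10 CPM, and within each gene the libraries sit close together.

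Among small subunit genes the highest values were in Mrps16, Mrps7 and Mrps18b. Mrps16 (chr14:20389304-20393634, ENSMUSG00000049960), the counterpart of a bacterial body protein and a disease gene in humans, was at 27.2 and 26.7 CPM with EM-plasma, against 24.98 and 24.05 CPM in controls. The EM-plasma libraries were both above both controls, and its log2 fold change, 0.14 (SE 0.071), was the highest of all members, with no call (adjusted p = 0.287, edgeR's quasi-likelihood test). Mrps7 (chr11:115603925-115608036, ENSMUSG00000046756) is part of the head and binds the 3′ domain of the small rRNA. It was at 90.3 and 94.3 CPM with EM-plasma, against 84.8 and 85.1 CPM in controls. The controls were nearly equal and below both EM-plasma libraries, and the log2 fold change was 0.12 (SE 0.054, adjusted p = 0.207, edgeR's quasi-likelihood test).

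Mammals have 3 homologues of the bacterial protein S18. Mrps18b (chr17:35910379-35916389, ENSMUSG00000024436), a small subunit protein, was at 41.9 and 40.2 CPM with EM-plasma, against 37.0 and 38.9 CPM in controls, without overlap (log2 fold change 0.11, SE 0.064, and 0.072 without control 1). Mrps18a (chr17:46110986-46128910, ENSMUSG00000023967), the homologue placed in the large subunit, was at 50.3 and 50.1 CPM with EM-plasma, against 47.7 and 47.3 CPM in controls (log2 fold change 0.080). Mrps18c (chr5:100798627-100804471, ENSMUSG00000016833), which holds the S18 place in the small subunit, was at 10.1 and 12.2 CPM with EM-plasma, against 10.6 and 12.6 CPM in controls. Replicate 1 was low and replicate 2 high in both groups of Mrps18c, which had the fewest reads of any member, and its 95% interval of -0.28 to 0.17 was the widest among the members named here. Its log2 fold change of -0.051 became 0.078 without EM-plasma 1 and 0.081 without control 2. None of these genes was called.

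The lowest small subunit values were in Mrps36, Mrps22 and Mrps17. Mrps36 (chr13:100735955-100744659, ENSMUSG00000061474), the gene whose product is assigned to 2-oxoglutarate dehydrogenase, was at 21.3 and 20.8 CPM with EM-plasma, against 23.0 and 24.2 CPM in controls. The groups did not overlap, and the log2 fold change was -0.17 (SE 0.075, adjusted p = 0.207, edgeR's quasi-likelihood test). It has processed copies, of which Mrps36-ps1 had 33 reads over the libraries. Mrps22 (chr9:98588730-98601660, ENSMUSG00000032459), a protein particular to mitochondria and a disease gene in humans, was at 40.8 and 43.7 CPM with EM-plasma, against 47.0 and 47.0 CPM in controls. The controls were equal to 3 digits and above both EM-plasma libraries, with a log2 fold change of -0.15 and no call (adjusted p = 0.158, edgeR's quasi-likelihood test). Mrps17 (chr5:129715497-129722556, ENSMUSG00000034211), counterpart of a bacterial rRNA-binding protein, was at 47.2 and 44.3 CPM with EM-plasma, against 49.1 and 49.003 CPM in controls. It had a log2 fold change of -0.10 (SE 0.062, and -0.056 without EM-plasma 2), and its EM-plasma libraries differed from each other by more than EM-plasma 1 did from the controls.

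Mrps21 and Mrps15, the small subunit genes with most reads per length, overlapped between the groups. Mrps21 (chr3:95862634-95871519, ENSMUSG00000054312) was at 33.1 and 35.2 CPM with EM-plasma, against 36.4 and 34.2 CPM in controls. Mrps15 (chr4:126046925-126055532, ENSMUSG00000028861) was at 63.4 and 60.1 CPM with EM-plasma, against 64.1 and 62.7 CPM in controls. In both genes the libraries of the groups were interleaved, and the log2 fold changes were -0.045 and -0.039.

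Grouped by place and origin, the members' medians lay between -0.0063 and 0.022. The 7 proteins around the peptide exit tunnel had a median log2 fold change of 0.011, with 6 of them above 0. The 8 of the central protuberance had a median of 0.0028, and the 4 tested members of the factor-binding stalk had one of 0.020. In the small subunit the 8 head proteins had a median of 0.011 and the 17 of the body and platform one of 0.00041. By origin, the 30 large subunit proteins with a bacterial counterpart had a median of 0.015 and the 20 tested ones particular to mitochondria 0.0036. For the small subunit these medians were -0.0063 over 16 genes and 0.022 over 10. None of these members was called, against 6.21% of all tested genes.

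The members lie on 17 chromosomes, with 11 of them on chromosome 11. Mrps11, of the small subunit, and Mrpl46, of the large one, are arranged head to head on chromosome 7, with RefSeq starts 42 bases apart. Their annotated exons share 173 bases on opposite strands, 7.97% of those of Mrps11 and 12.2% of those of Mrpl46. Mrps11 was at 33.8 and 35.2 CPM with EM-plasma, against 33.5 and 31.2 CPM in controls (log2 fold change 0.093). Mrpl46 was at 33.6 and 29.6 CPM with EM-plasma, against 30.2 and 29.5 CPM in controls (log2 fold change 0.082). Of these neighbours Mrps11 had groups without overlap and Mrpl46 did not, and neither was called. By annotation 32 members share exonic bases with another gene, 22 of them with a protein-coding gene and 3 of those on the same strand. The largest shares, both with a gene on the opposite strand, were in Mrps25 (69.8% of exonic bases, shared with Nr2c2) and Mrps34 (63.4%, shared with Mapk8ip3). Without the strand setting of the counting these reads cannot be told apart. On its own strand Mrps34 shares 37.0% with Nme3, which had 0 reads.

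Levels per length differed widely between members. Divided by the median annotated transcript length, the mean level over the libraries ran from 7.19 CPM per kb for Mrpl1 to 175.5 for Mrpl42, a span of 24.4-fold, with a median of 40.3 CPM per kb. Of the 77 members 58 lay within 2-fold of that median. Mrpl42 was at 175.9 and 177.1 CPM per kb with EM-plasma, against 168.6 and 180.6 in controls. Mrpl12 was next, at 165.3 and 169.7 CPM per kb with EM-plasma, against 167.9 and 158.1 in controls, so that the ranges of these members over the libraries overlapped. Mrpl20, the next in order, ran from 131.4 to 134.0 CPM per kb, below both.

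The Mrps genes spanned less, from 10.01 CPM per kb for Mrps16 to 77.8 for Mrps21, a span of 7.76-fold, with a median of 37.3 CPM per kb, against 42.9 for the Mrpl genes. At the low end Mrpl57 ran from 6.94 to 7.48 CPM per kb, inside the range of Mrpl1, 6.26 to 8.31. The lengths are those of annotated transcripts, and the transcripts used in these cells were not measured.

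**Figure D4:**
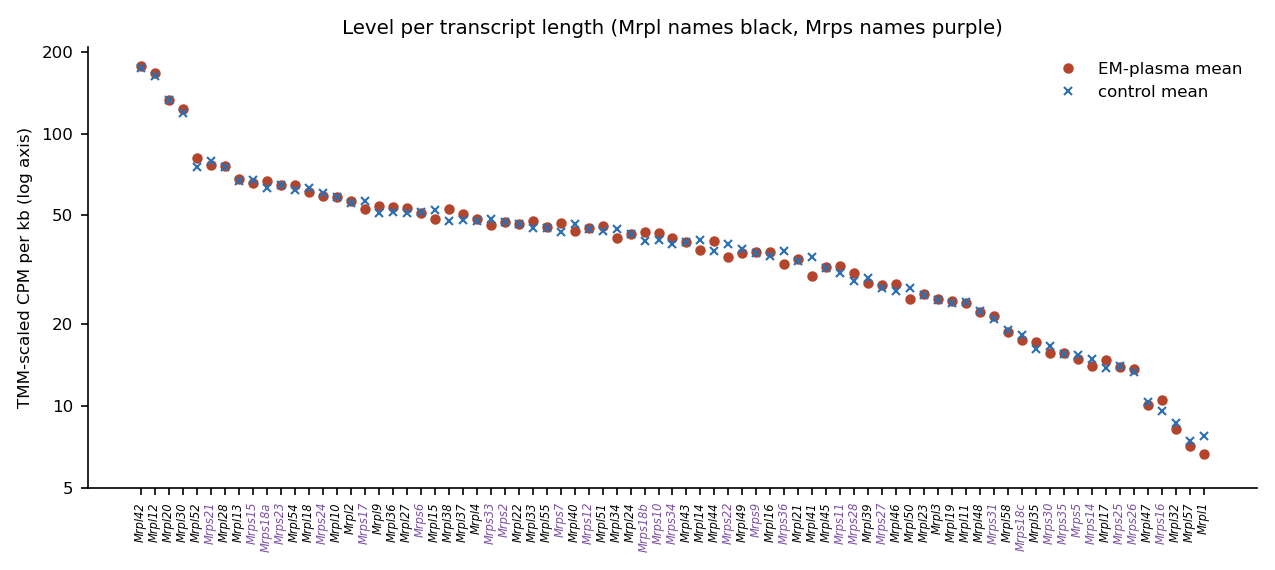
Group mean of TMM-scaled CPM per kb of annotated transcript (y axis, log scale) for the 77 members, ordered from highest to lowest; red circles are EM-plasma and blue crosses control, Mrpl names are black and Mrps names purple. The EM-plasma means run from 176.5 for Mrpl42 to 6.65 for Mrpl1 and the control means from 174.6 for Mrpl42 to 7.41 for Mrpl57.

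Across the 77 members the log2 fold change went with the GC content of the transcript, with a Pearson r of 0.34 and a Spearman rho of 0.35. Over 13647 tested genes with a GC value these were 0.081 and 0.23. The points share the same libraries and scaling, so no p is given. The 38 members of lower GC content had a median log2 fold change of -0.0034 and the 39 of higher GC content 0.022, against -0.033 and 0.030 in all tested genes split the same way. With transcript length the Pearson r over the members was -0.025. With the GC trend removed from each library, Mrpl35, a large subunit protein, was called higher (log2 fold change 0.14, adjusted p = 0.0325, edgeR's quasi-likelihood test), while with no trend removed it was at 62.5 and 65.2 CPM with EM-plasma, against 58.3 and 61.8 CPM in controls, with an adjusted p of 0.443.

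The other proteins of the mitochondrial ribosome were not called either. Of Dap3, Ptcd3, Aurkaip1, Chchd1 and Gadd45gip1, 5 of 5 were tested and 0 called, against 6.21% of all tested genes. Their median log2 fold change was 0.023. Ptcd3, a pentatricopeptide repeat protein of the small subunit, was at 176.2 and 185.9 CPM with EM-plasma, against 178.2 and 193.7 CPM in controls. Dap3, a GTP-binding small subunit protein, was at 79.5 and 80.4 CPM with EM-plasma, against 77.5 and 74.4 CPM in controls. The groups overlapped in Ptcd3 and not in Dap3.

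Of 26 factors that process rRNAs and assemble subunits, 1 was called higher and 0 lower, against 3.34% and 2.88% of all tested genes. Of the 26, 19 had a fold change above 0, against 6712 of 13664 tested genes. The median log2 fold change of the 26 was 0.079. The 1 called was Rcc1l, a factor of the module that binds the large mitochondrial rRNA. It was at 45.0 and 44.0 CPM with EM-plasma, against 39.0 and 36.9 CPM in controls, with no overlap. It rose by 0.23 on the log2 scale (SE 0.064, adjusted p = 0.0278, edgeR's quasi-likelihood test). The call ended with DESeq2 (adjusted p = 0.0726) and without any 1 library (adjusted p = 0.0545 to 0.454), the whole range over alternatives being 0.00310 to 0.454.

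Of 15 tested among 16 listed factors of mitochondrial translation and of the handling of mitochondrial mRNAs 0 were called, against 6.21% of all tested genes. Their median log2 fold change was -0.025. Lrpprc, which binds and stabilizes mitochondrial mRNAs, was at 180.9 and 182.4 CPM with EM-plasma, against 185.5 and 188.7 CPM in controls. Of 10 genes of mitochondrial transcription and replication 0 were called, against the same 6.21%, with a median of -0.030. Polg, the mitochondrial DNA polymerase, was at 135.2 and 130.1 CPM with EM-plasma, against 126.7 and 116.7 CPM in controls. Both of these genes had groups without overlap, on opposite sides.

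Transcripts of the mitochondrial genome, which the mitochondrial ribosome translates, did change in this poly(A) RNA. Of 12 tested mRNAs, all but mt-Atp8, 5 were higher and 2 lower, against 3.34% and 2.88% of all tested genes. Those not called, mt-Co2, mt-Atp6, mt-Co3, mt-Nd3 and mt-Nd4l, were at 0.15 to 3.27 CPM across the libraries. At such low levels their log2 fold changes were poorly measured, with standard errors of 0.19 to 0.58. mt-Co1, a core subunit of cytochrome c oxidase, was at 876.7 and 884.3 CPM with EM-plasma, against 672.9 and 637.6 CPM in controls (log2 fold change 0.43, adjusted p = 2.71e-08, edgeR's quasi-likelihood test). mt-Nd5, of complex I, was at 446.7 and 455.3 CPM with EM-plasma, against 362.7 and 348.6 CPM in controls. mt-Cytb, of complex III, was at 679.1 and 677.3 CPM with EM-plasma, against 550.6 and 533.1 CPM in controls. The EM-plasma libraries of these genes were all above the controls, and mt-Nd4 and mt-Nd6 were called higher as well.

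The other called mRNAs were mt-Nd1 and mt-Nd2, which encode complex I subunits, and both fell. mt-Nd1 was at 568.0 and 570.4 CPM with EM-plasma, against 667.8 and 698.4 CPM in controls (log2 fold change -0.26, adjusted p = 8.44e-05, edgeR's quasi-likelihood test). mt-Nd2 was at 292.1 and 300.2 CPM with EM-plasma, against 353.9 and 362.3 CPM in controls. Without control 2, 4 of these mRNAs were called higher and 1 lower, and without EM-plasma 1 these counts were 5 and 1. With no filter on low counts, a fit that called 14 genes in all, they were 0 and 0 (adjusted p = 0.05003 for mt-Co1 and 0.104 for mt-Nd1, edgeR's quasi-likelihood test). Nuclear copies of the mitochondrial genome can share reads with these genes, so their levels are uncertain.

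The rRNA of the large subunit, mt-Rnr2, was at 95.97 and 115.9 CPM with EM-plasma, against 88.7 and 91.5 CPM in controls. Both EM-plasma libraries were above the controls, EM-plasma 2 far more so. The log2 fold change was 0.23 (SE 0.064, adjusted p = 0.0255, edgeR's quasi-likelihood test), without EM-plasma 1 it was 0.36, and without EM-plasma 2 it was 0.089 (adjusted p = 0.827, with 5.78e-05 to 0.827 over all alternatives). The rRNA of the small subunit, mt-Rnr1, was at 41.8 and 46.2 CPM with EM-plasma, against 48.4 and 45.1 CPM in controls, which overlapped. rRNAs are mostly removed by poly(A) selection, so these counts do not measure the amount of rRNA in the cells.

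Of 9 regulators known to act on promoters of mitochondrial protein genes, 1 was called higher and 1 lower. Among all tested genes these shares were 3.34% and 2.88%. Myc, a growth factor-responsive activator of ribosome genes, was at 164.5 and 159.0 CPM with EM-plasma, against 147.5 and 140.2 CPM in controls. It rose with a log2 fold change of 0.17 (adjusted p = 0.0355, edgeR's quasi-likelihood test). Yy1, the zinc finger factor whose letters were found in 12 member windows, was at 142.3 and 144.3 CPM with EM-plasma, against 155.8 and 165.8 CPM in controls. It fell by 0.17 on the log2 scale (adjusted p = 0.0399, edgeR's quasi-likelihood test). In both genes the groups lay apart. Without 1 library the adjusted p of Myc was 0.0524 to 0.641 (0.00204 to 0.641 over all alternatives) and that of Yy1 0.0394 to 0.569 (0.00174 to 0.569 over all). Nrf1 was at 69.3 and 70.0 CPM with EM-plasma, against 74.2 and 68.2 CPM in controls, which overlapped. Gabpa, of the ETS factor GABP, was at 90.6 and 90.3 CPM with EM-plasma, against 98.4 and 105.3 CPM in controls, without overlap. Its log2 fold change of -0.17 narrowly missed the call (adjusted p = 0.0533, edgeR's quasi-likelihood test).

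The ribosomes of the cytosol and the machinery made with mitochondrial translation gave values to set beside the members. Of 76 cytosolic Rpl and Rps genes 1 was called higher, against 3.34% of all tested genes. A fold change above 0 was found in 76 of 76, against 6712 of 13664 tested genes. Their median log2 fold change was 0.067, with a standard deviation of 0.031. Without EM-plasma 2, 68 were above 0, and without control 1, 65 were. The 1 called was Rps14, at 301.9 and 315.8 CPM with EM-plasma, against 282.5 and 274.9 CPM in controls (log2 fold change 0.15, adjusted p = 0.0425, edgeR's quasi-likelihood test). That call ended without any 1 library (adjusted p = 0.0654 to 0.695) and with no filter on low counts (adjusted p = 0.291), the range over alternatives being 0.00378 to 0.695. With the GC trend removed 18 of the 76 were called higher, in a fit that called 846 of all 13664 tested genes higher, against 456 as reported. Of 77 nuclear genes of oxidative phosphorylation 0 were called, against 6.21% of all tested genes. Among these 77, 33 were above 0, and the median was -0.0097 with a standard deviation of 0.049. The members, with 46 of 77 above 0 and a standard deviation of 0.080, were spread more widely than either of these sets. That difference was not tested. The median standard error was 0.062 over the members, against 0.045 in the cytosolic set and 0.054 in the oxidative phosphorylation set. The assembly factors (standard deviation 0.11) and translation factors (0.089) were spread more widely than the members, with median standard errors of 0.076 and 0.066.

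**Figure D5:**
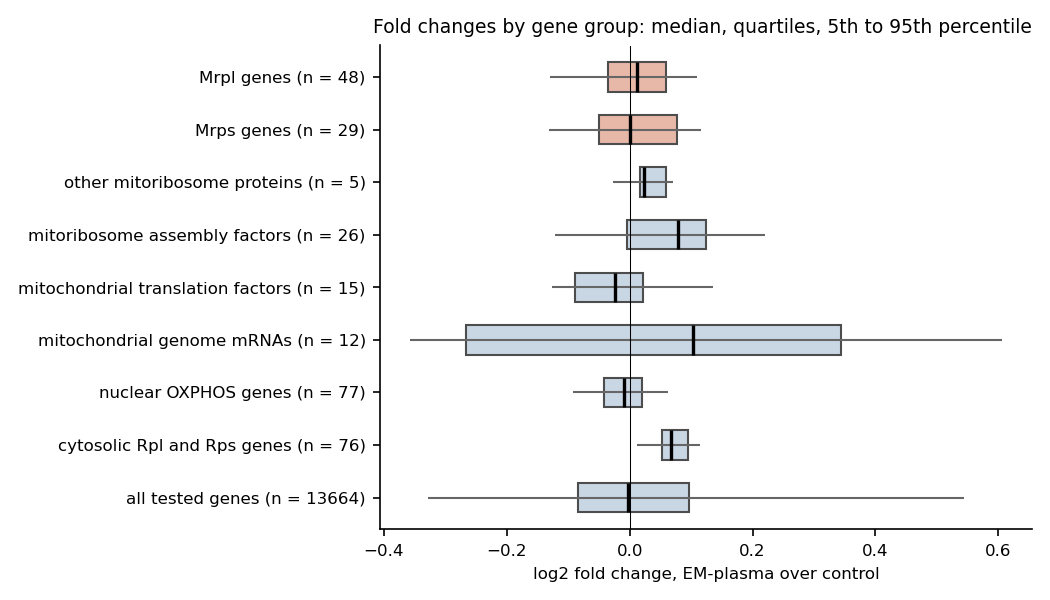
Log2 fold change of EM-plasma over control (x axis) by gene group, with the number of genes; thick lines are medians, boxes the quartiles and thin lines the range from the 5th to the 95th percentile. The Mrpl and Mrps boxes straddle 0 with medians of 0.012 and 0.00041, the cytosolic box lies above 0 with a median of 0.067, and the mitochondrial mRNAs are the widest group.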

How the data were processed

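The count table deposited by the authors held whole reads per gene in a separate column for each library. A scaled signal table per sample, also deposited by the authors, served only to check the columns. In genes with a read its values were proportional to that library's counts, to within a relative 0.0001. CASAVA, TopHat2 2.1.1, HTSeq, edgeR and build GRCm38 are named, per the submitters' processing notes, without roles. Which annotation was counted, and with which strand setting, is not given in the sources used here. Per the labels' protocols, poly(A) RNA went into a stranded Illumina kit.

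Groups came from the sample titles. Genes kept by filterByExpr were scaled by TMM and tested with edgeR 4.0.16 (R 4.3.3), the quasi-likelihood F test with legacy dispersion on group alone, two-sided, adjusted by Benjamini-Hochberg over 13664 tested genes. The whole table was fitted and the members read from it. Changes were called at an adjusted p below 0.05. The script was tested on simulated data. Symbols were matched for 53360 of 53465 rows, and the rest took 0.0060% to 0.0064% of a library. Totals of 46295133 to 49367932 counts gave a median standard error of 0.070.

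Positions, length and GC content came from GENCODE M21 and promoter windows from RefSeq. Alternatives were DESeq2 1.42.0, other scalings and filters, the replicate block, GC and length trends removed, and each library left out.

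The members, lists and tests were chosen with earlier results of these data known. Members were named by the 3 highest and 3 lowest fold changes per subunit at 5 CPM or more, the 2 with most CPM per kb and the 1 with fewest reads per subunit, and those at the read limit. From related lists the rule took up to 3 called genes by smallest adjusted p, or the gene with most CPM where none was called. Mrps18a, Mrps11, Mrpl46, Mrpl35, Dap3, Nrf1, mt-Rnr1, mt-Nd1, mt-Nd2, mt-Nd4, mt-Nd6 and the members at the ends of the order per length were named after their values were seen. So were Gabpa, Tyr, Mitf, Col1a2, Pdgfra and the mitochondrial mRNAs that were not called.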

Additional observations from a re-analysis of the deposited data

How the results depend on the processing

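The number of members called was 0 as reported and with DESeq2, other scalings, other filters and each library left out. It was 2 with the replicate block (Mrpl1, adjusted p = 0.025, and Mrpl41, adjusted p = 0.0156, both lower), 2 with the GC trend removed (Mrpl41 lower and Mrpl35 higher) and 1 with the length trend removed (Mrpl41), all of them Mrpl genes. Over all genes 849 were called, against 547 with DESeq2, 14 with no filter on low counts, 1683 with the replicate block, 1740 with the GC trend removed and 71 to 547 with 1 library left out (fewest without control 2). The deviations of same-numbered libraries correlated at 0.039, so the replicate numbers were not taken to pair the samples.

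The Mrpl median log2 fold change was 0.012, against 0.023 with no scaling factor, 0.0060 with the length trend removed and 0.0062 to 0.012 with 1 library left out. The log2 ratio of the Mrpl sums was 0.014, against 0.00046 to 0.025 with 1 library left out. The Mrps median was 0.00041, against -0.0031 to 0.017 with 1 library left out, and the log2 ratio of the Mrps sums was 0.0036, against 0.015 with no scaling factor and -0.0049 to 0.0100 with 1 library left out. Some directions turned. With 1 library left out the log2 fold change ran from -0.037 to 0.069 in Mrpl42, from -0.00015 to 0.079 in Mrpl12 and from -0.19 to 0.081 in Mrps18c (0.078 without EM-plasma 1, 0.081 without control 2). Mrpl23 was at -0.013 with the GC trend removed. Over all alternatives Mrpl46 ran from -0.015 to 0.17 and Mrpl20 from -0.010 to 0.013. The cause was not tested. With 2 libraries a group, changes of members much under 1.2-fold were within the intervals.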
